A study of Mus musculus with 12 samples.

Results

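The interleukin-1 and interleukin-18 axis was followed through 9 genes in mouse ear skin: the ligands Il1a, Il1b and Il18, the receptor antagonist Il1rn, the decoys Il1r2 and Il18bp, the signalling receptor chains Il1r1 and Il1rap, and the protease gene Casp1. The members were taken by gene symbol from a list, and all 9 were found among the 23234 symbols listed in each library. RNA sequencing covered 12 libraries of skin, in 4 groups of 3, from mice aged 8 to 12 weeks. WT_untreated, WT_PBS and WT_Oxarol came from wild-type C57BL/6J mice that received nothing, phosphate-buffered saline (PBS), or Oxarol, an ointment of which 100 mg held 2.5 µg of maxacalcitol, an active vitamin D3 analogue. VDRcKO_Oxarol received the ointment and carries the genotype label K5-Cre;VDR f/f, in which Cre recombinase under the keratin 5 promoter acts on a floxed vitamin D receptor gene in basal keratinocytes and their descendants. Treated skin was taken 1 day after application. No ointment base without maxacalcitol, and no PBS or untreated group of the K5-Cre;VDR f/f genotype, is among these samples, so the genotype and its response to the ointment cannot be told apart. Whether the libraries of a group stem from different mice is not labelled, so the p-values speak of the spread between these libraries, part of which may be technical.

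Interleukin-1 alpha and beta bind the receptor IL1R1, which signals only together with its accessory chain IL1RAP, through MyD88 and IRAK kinases to NF-kB. The antagonist IL1RN occupies IL1R1 without signalling, and IL1R2 captures ligand without signalling because it lacks the signalling domain. Interleukin-18 acts through a related receptor pair and is neutralised in solution by IL18BP. Interleukin-1 beta and interleukin-18 are made as precursors that caspase-1 cleaves inside inflammasomes, whereas the precursor of interleukin-1 alpha is already active. Keratinocytes store interleukin-1 alpha and interleukin-18 and make much of the skin's receptor antagonist, so the epidermis holds both sides of the balance. RNA levels say nothing of cleavage or release of these proteins.

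The series is described here by ranges. Values are FPKM, fragments scaled to transcript length and library size, which may be set side by side between genes. From the steps between low values, 11 libraries were estimated to hold 4890000 to 25500000 fragments, with WT_PBS replicate 3 apart at 121000000 and the VDRcKO_Oxarol libraries shallow at 4890000, 5770000 and 7120000. Pearson correlations of log2 values were 0.96 to 0.98 within groups and 0.95 to 0.98 between groups. Library codes form 2 series: replicate 3 of WT_untreated, WT_PBS and WT_Oxarol and every VDRcKO_Oxarol library carry codes of the second, and the others codes of the first. Cyp24a1, a direct target of the vitamin D receptor whose product breaks the hormone down, averaged 374 FPKM in WT_Oxarol, 0.0219 FPKM in WT_PBS and 0.149 FPKM in VDRcKO_Oxarol. Vdr itself was higher in the libraries labelled VDRcKO_Oxarol (22.2 FPKM on average) than in WT_Oxarol (7.20 FPKM), a log2 change of 1.49 ± 0.21 (SE; limma, adjusted p = 0.00558). That direction goes against the genotype label. This gene-level value includes exons that Cre leaves in place and RNA of other cell types, and is no test of the deletion. Every direction given below for VDRcKO_Oxarol is that of the libraries so labelled. Basal and suprabasal keratinocyte markers summed to 2829 to 4490 and 3112 to 5973 FPKM over the 12 libraries, which fits the labelled tissue, skin.

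The upstream sequences of Il18, Il1rn and Casp1 are shown because these 3 genes passed the test between the ointment groups. Each line holds the 250 bases before the RefSeq start site on the gene's own strand, 5′ to 3′, with RefSeq coordinates on GRCm38.p6. Capitals mark the matches described after them. Il18 is at chr9:50554450-50554699 (plus strand), the first of 3 start sites of Il1rn at chr2:24336610-24336859 (plus strand), and Casp1 at chr9:5298267-5298516 (plus strand).
Il18: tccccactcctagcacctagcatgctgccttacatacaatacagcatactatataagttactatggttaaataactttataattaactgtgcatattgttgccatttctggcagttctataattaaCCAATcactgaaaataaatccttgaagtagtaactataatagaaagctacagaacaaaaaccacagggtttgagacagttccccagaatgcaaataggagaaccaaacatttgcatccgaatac
Il1rn: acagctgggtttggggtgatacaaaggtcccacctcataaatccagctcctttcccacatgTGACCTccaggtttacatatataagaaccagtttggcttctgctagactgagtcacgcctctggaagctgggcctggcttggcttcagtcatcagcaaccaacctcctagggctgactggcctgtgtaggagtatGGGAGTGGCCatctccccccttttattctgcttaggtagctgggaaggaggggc
Casp1: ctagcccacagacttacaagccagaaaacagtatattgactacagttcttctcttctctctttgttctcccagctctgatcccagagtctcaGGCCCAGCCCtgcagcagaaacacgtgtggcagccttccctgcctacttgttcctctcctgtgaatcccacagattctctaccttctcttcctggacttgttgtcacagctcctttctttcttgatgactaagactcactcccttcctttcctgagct
Position -1 is the base just before the start site. The Il18 window held CCAAT, the CAAT box, at -124 to -120. In the Il1rn window, TGACCT at -189 to -184 is the reverse complement of the vitamin D receptor half-site AGGTCA, and GGGAGTGGCC at -54 to -45 matches GGGNNNNNCC, a loose form of the NF-kB site. The Casp1 window held GGCCCAGCCC at -158 to -149, a reverse-strand match to that loose form. Half-sites (AGGTCA as well as AGTTCA, also GGGTCA as well as GGTTCA, on both strands) occurred in 38.6% of all 32851 windows of this length. The loose NF-kB form (both strands) occurred in 45.8% and CCAAT (both strands) in 33.8%, so such matches are common. A pair of half-sites with 3 bases between them occurred in 0.0396% of windows and in none of the 12 windows of the 9 members. Single half-sites also lay in the windows of Il18bp and of both Il1r1 start sites, genes called in no comparison. The other Il1rn windows held none. The TATA box TATAAA (plus strand) was found at -32 to -27 of Il1a and at -31 to -26 of Il1b, against 7.59% of all windows, and in no other member window. No match overlapped another in the windows shown, and each match is a description of letters only.

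Levels of the 9 genes spanned the whole range from near the filter to over 100 FPKM. Il1r2, the decoy receptor, was the most abundant member in every group, with means of 122 to 142 FPKM. Il1rn, at 45.1 to 65.2 FPKM, and Il18, at 30.9 to 66.2 FPKM, came next. The pair overlapped within WT_untreated and WT_PBS. Il1rn was above Il18 in all WT_Oxarol libraries, and Il18 above Il1rn in all VDRcKO_Oxarol libraries. Il1a, Il1r1, Il1rap and Casp1 lay between 8.86 and 17.3 FPKM, with overlapping libraries in most groups. Il1b, at 0.66 to 3.14 FPKM, and Il18bp, at 1.26 to 1.88 FPKM, were lowest. No member was listed at 0 in any library, and all 9 passed the filter on low values. Il1b did so without WT_untreated, where 1 of 3 libraries reached 1 FPKM.

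**Figure D1:**
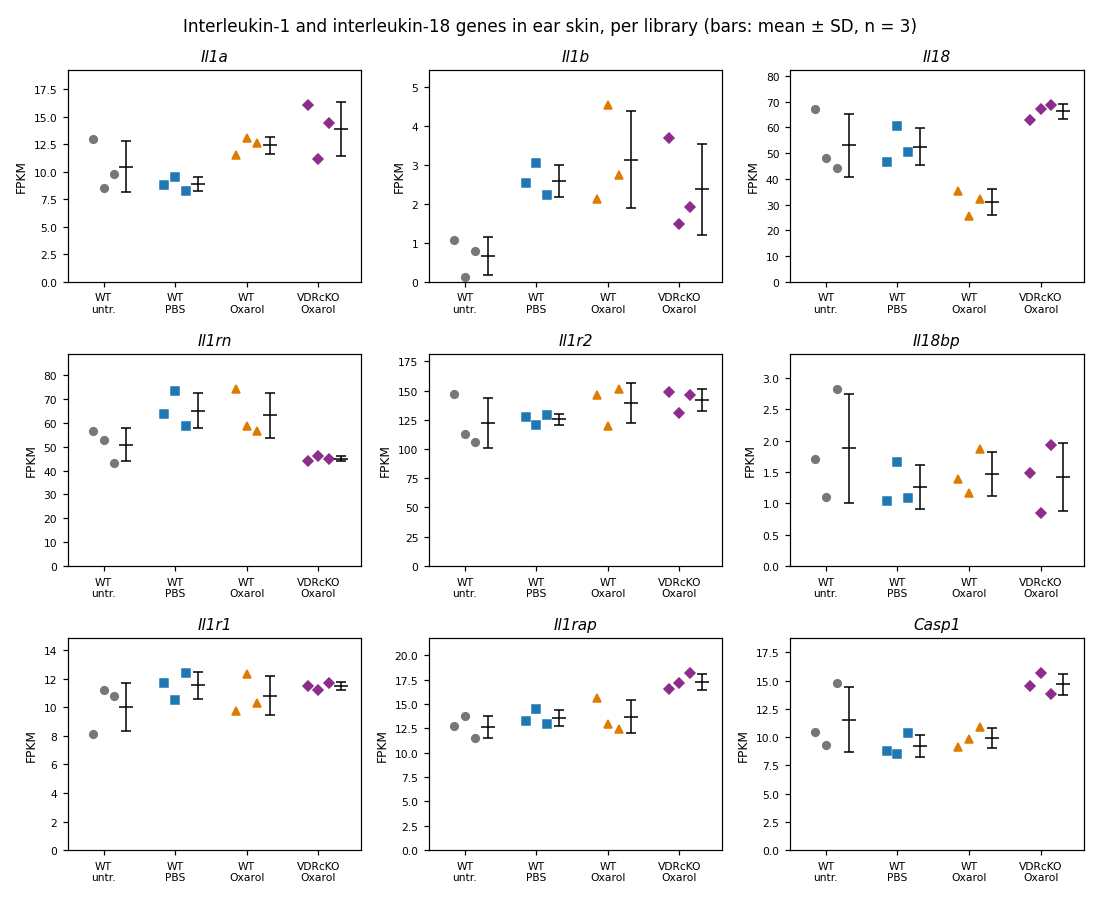
Expression of the 9 genes in each library (FPKM, one panel per gene, its own axis); points are libraries by group and bars are the mean ± SD of 3. Il18 in WT_Oxarol lies below all other libraries, and Il1b is lowest in WT_untreated.

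Il18, which encodes interleukin-18, set the ointment groups apart most clearly. It stood at 67.1, 48.0 and 44.3 FPKM in WT_untreated and at 46.5, 60.5 and 50.5 FPKM in WT_PBS. The WT_Oxarol libraries held 35.3, 25.5 and 32.1 FPKM, and the VDRcKO_Oxarol libraries 62.9, 67.1 and 68.7 FPKM. All 3 WT_Oxarol libraries were therefore below each of the other 9. Between VDRcKO_Oxarol (66.2 ± 3.0 FPKM, SD, n = 3) and WT_Oxarol (30.9 ± 5.02 FPKM, SD, n = 3) the log2 change was 1.08 ± 0.16 (SE; limma, adjusted p = 0.00721), a 2.12-fold difference with a 95% interval of 0.72 to 1.45 on the log2 scale. In WT_Oxarol against WT_PBS (52.5 ± 7.18 FPKM, SD, n = 3) the value was -0.75 ± 0.16 (SE; adjusted p = 0.126), which did not pass although the libraries did not overlap. Against WT_untreated it was -0.75 ± 0.16 (SE; adjusted p = 0.0621). These comparisons share the WT_Oxarol libraries. VDRcKO_Oxarol against WT_PBS gave 0.34 ± 0.16 (SE; adjusted p = 0.174), and against WT_untreated 0.34 ± 0.16 (SE; adjusted p = 0.170).

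Markers of several cell types differed between VDRcKO_Oxarol and WT_Oxarol, where 8.71% of all genes tested were called higher. Calls of 1 or 2 markers of a list rest on few genes beside that share. The share of all genes without overlap was not computed. Hair follicle markers, 14 of 14 measured, summed to 12.0 to 58.6 FPKM in WT_Oxarol and 235 to 1111 FPKM in VDRcKO_Oxarol, with 12 of 14 called higher. In WT_Oxarol Krt31, Krt34 and Krt35 were each at 0 in at least 1 library. The same sum was 13.8, 19.0 and 268 FPKM in WT_PBS and 16.3, 22.4 and 152 FPKM in WT_untreated. The highest in each was replicate 3, of the second code series, which holds every VDRcKO_Oxarol library. WT_PBS replicate 3 thus exceeded the lowest VDRcKO_Oxarol library. In WT_Oxarol, replicate 3 was the lowest, at 12.0 FPKM. The part of the code series in these sums was not tested. Macrophage and monocyte markers, 13 of 13 measured and none at 0, summed to 626 to 816 FPKM in WT_Oxarol and 1033 to 1297 FPKM in VDRcKO_Oxarol, with 7 of 13 called higher. T cell markers, 7 of 7 measured and none at 0, summed to 62.0 to 73.5 FPKM and 86.5 to 96.2 FPKM, without overlap, with 2 of 7 called higher. Suprabasal keratinocyte markers, 7 of 8 measured and none at 0, summed to 4785 to 5645 FPKM and 4836 to 5973 FPKM, with 2 of 7 called higher and a median log2 change of 0.46. Basal keratinocyte markers, 7 of 7 measured and none at 0, summed to 2829 to 4022 FPKM and 2993 to 3244 FPKM, and none was called. Of 7 Langerhans and dendritic markers 1 was called higher, and of 8 mast cell and 4 tested neutrophil markers none was called. The mast cell sums were 230.6 to 250 FPKM in WT_Oxarol and 265.7 to 318.5 FPKM in VDRcKO_Oxarol, without overlap, with a median log2 change of -0.05. The part of these cell types in the Il18 difference was not tested. With the code series as a term, the Il18 change was 1.16 (adjusted p = 0.0301). Within the second series, the lone WT_Oxarol library held 32.1 FPKM against 62.9 to 68.7 FPKM. In bulk skin, fewer cells of a type and less RNA per cell cannot be told apart.

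Il1a, the interleukin-1 that needs no cleavage to signal, stood at 13.0, 8.52 and 9.80 FPKM in WT_untreated. The PBS libraries held 8.83, 9.49 and 8.27 FPKM, the WT_Oxarol libraries 11.5, 13.0 and 12.6 FPKM, and the VDRcKO_Oxarol libraries 16.0, 11.2 and 14.4 FPKM. Both ointment groups lay above WT_PBS without overlap, while the untreated range overlapped with all 3 treated groups. WT_Oxarol against WT_PBS gave 0.44 ± 0.15 (SE; adjusted p = 0.438) and did not pass. VDRcKO_Oxarol against WT_PBS passed, at 0.58 ± 0.15 (SE; adjusted p = 0.0310). That call was lost with the code series as a term (0.62, adjusted p = 0.0856), with quantile normalization (0.46, adjusted p = 0.0783) or median-of-ratios scaling (0.49, adjusted p = 0.0530), and without any 1 of the WT_PBS libraries or VDRcKO_Oxarol replicate 1 or 3 (0.48 to 0.63, adjusted p 0.0744 to 0.104). The ointment groups differed by 0.14 ± 0.15 (SE; adjusted p = 0.554), with a 95% interval of -0.20 to 0.48.

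Il1b, the inducible interleukin-1 of myeloid cells, was low throughout. It stood at 1.08, 0.112 and 0.792 FPKM in WT_untreated and at 2.53, 3.04 and 2.22 FPKM in WT_PBS. WT_Oxarol held 2.13, 4.55 and 2.75 FPKM, and VDRcKO_Oxarol 3.71, 1.49 and 1.93 FPKM. All 9 libraries of the treated groups exceeded all 3 untreated ones. The log2 differences from WT_untreated were 1.16 ± 0.30 (SE; adjusted p = 0.430) for WT_PBS, 1.32 ± 0.30 (SE; adjusted p = 0.0645) for WT_Oxarol and 1.02 ± 0.30 (SE; adjusted p = 0.0383) for VDRcKO_Oxarol. These share the untreated libraries, and only the last passed. In WT_untreated only 1 of 3 libraries reached 1 FPKM, so Il1b passed the filter through the treated groups. The filter itself thus favours a rise over WT_untreated, and these differences and that call are description. That call was lost with the code series as a term (adjusted p = 0.0944), no filter (adjusted p = 0.0610), quantile normalization (0.81, adjusted p = 0.0720) and the fit of the 2 groups alone (adjusted p = 0.109). It was also lost without WT_untreated replicate 2 (0.75, adjusted p = 0.0973), VDRcKO_Oxarol replicate 1 (0.75, adjusted p = 0.122) or replicate 3, any 1 of the WT_PBS libraries, or WT_Oxarol replicate 3. Neither ointment group differed detectably from WT_PBS, at 0.17 ± 0.30 (SE; adjusted p = 0.999) and -0.14 ± 0.30 (SE; adjusted p = 0.769). The Il1b values rest on few molecules: an estimated 2.08 to 19.8 fragments in the untreated and 10.4 to 21.9 in the VDRcKO_Oxarol libraries, against 324 in WT_PBS replicate 3. Neutrophil markers, 8 of 9 measured, summed to 11.6 to 13.8 FPKM in WT_untreated, 16.2 to 18.5 in WT_PBS, 17.3 to 22.0 in WT_Oxarol and 18.4 to 21.0 in VDRcKO_Oxarol. Of the defining granule genes, Ngp was at 0 in 1 or more libraries of every group. Mpo was so in WT_untreated, WT_PBS and VDRcKO_Oxarol, and Ltf in WT_untreated, WT_PBS and WT_Oxarol. In VDRcKO_Oxarol 1 of Mpo and Ngp was at 0 in all libraries. In VDRcKO_Oxarol against WT_untreated, the comparison in which Il1b passed, 2 of 4 tested neutrophil markers were called higher. Of all genes 12.8% were called higher there. In WT_PBS and WT_Oxarol against WT_untreated no neutrophil marker was called. Macrophage and monocyte sums were 614 to 690 FPKM in WT_untreated, 583 to 666 in WT_PBS, 626 to 816 in WT_Oxarol and 1033 to 1297 in VDRcKO_Oxarol. In VDRcKO_Oxarol against WT_untreated these sums did not overlap and 12 of 13 markers were called higher (median 0.77), while in WT_PBS and WT_Oxarol against WT_untreated none was called. The part of these markers in the Il1b difference was not tested.

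On the inhibitory side, Il1rn, which encodes the receptor antagonist, was lower in VDRcKO_Oxarol than in WT_Oxarol or WT_PBS. Its values were 56.5, 52.7 and 43.3 FPKM in WT_untreated, 63.9, 73.2 and 58.6 FPKM in WT_PBS and 74.1, 58.8 and 56.7 FPKM in WT_Oxarol. The VDRcKO_Oxarol libraries held 43.9, 46.3 and 44.9 FPKM, below every PBS and WT_Oxarol library and inside the untreated range at its lower end. VDRcKO_Oxarol against WT_Oxarol fell by 0.47 ± 0.13 on the log2 scale (SE; limma, adjusted p = 0.0400). VDRcKO_Oxarol against WT_PBS fell by 0.52 ± 0.13 (SE; adjusted p = 0.0250), and against WT_untreated the value was -0.16 ± 0.13 (SE; adjusted p = 0.383). The ointment in wild type gave -0.05 ± 0.13 (SE; adjusted p = 1.00) over WT_PBS, with a 95% interval of -0.33 to 0.23. With the code series as a term, the difference between ointment groups was -0.30 and the call was lost (adjusted p = 0.164), as was that against WT_PBS (-0.35, adjusted p = 0.103). The call against WT_PBS was also lost without WT_PBS replicate 1 or 2 or any 1 of the VDRcKO_Oxarol libraries (adjusted p 0.0580 to 0.0984). Leaving out WT_Oxarol replicate 1 gave -0.35 between ointment groups (adjusted p = 0.108), and the call was also lost with no filter (adjusted p = 0.0536) and without WT_untreated replicate 2, WT_PBS replicate 1, WT_Oxarol replicate 2 or any 1 of the VDRcKO_Oxarol libraries. Within the second series, the WT_Oxarol library held 56.7 FPKM against 43.9 to 46.3 FPKM.

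Il1r2 and Il18bp, the decoys, showed no call in any of the 6 comparisons. Il1r2 stood at 147, 113 and 106 FPKM in WT_untreated, 127, 120 and 130 in WT_PBS, 147, 119 and 151 in WT_Oxarol, and 149, 131 and 146 in VDRcKO_Oxarol. Its ranges overlapped between the ointment groups, which differed by 0.03 ± 0.13 (SE; adjusted p = 0.880; 95% interval -0.25 to 0.32). Il18bp, the soluble trap of interleukin-18, stood at 1.71, 1.10 and 2.82 FPKM in WT_untreated, 1.03, 1.66 and 1.09 in WT_PBS, 1.39, 1.17 and 1.86 in WT_Oxarol, and 1.49, 0.840 and 1.92 in VDRcKO_Oxarol. All 4 ranges overlapped. The interval of the difference between ointment groups was wide, at -0.56 to 0.47 on the log2 scale, and VDRcKO_Oxarol replicate 2 rested on an estimated 5.63 to 11.9 fragments, depending on the transcript.

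Of the signalling receptor chains, Il1rap was called in 2 comparisons and Il1r1 in none. Il1rap, the chain that interleukin-1, interleukin-33 and interleukin-36 receptors share, stood at 12.8, 13.8 and 11.5 FPKM in WT_untreated, 13.3, 14.5 and 13.0 in WT_PBS, 15.6, 13.0 and 12.5 in WT_Oxarol, and 16.6, 17.1 and 18.1 in VDRcKO_Oxarol. Every VDRcKO_Oxarol library was above all 9 wild-type libraries. The change passed against WT_PBS (0.33 ± 0.10, SE; adjusted p = 0.0482) and WT_untreated (0.42 ± 0.10, SE; adjusted p = 0.0191). Quantile normalization ended both calls (0.24, adjusted p = 0.160, and 0.32, adjusted p = 0.0666). The call against WT_PBS, at the edge of the threshold, was also lost with a pseudocount of 0.1, no filter, median-of-ratios scaling, the robust variance model or no variance trend (0.23 to 0.35, adjusted p 0.0503 to 0.145). It was lost too without any 1 of the WT_PBS or VDRcKO_Oxarol libraries, WT_Oxarol replicate 2 or 3, or WT_untreated replicate 2, and that against WT_untreated without VDRcKO_Oxarol replicate 2 or 3. Against WT_Oxarol it was 0.32 ± 0.10 (SE; adjusted p = 0.0583) and did not pass, though it did without WT_untreated replicate 1 or 3 or WT_Oxarol replicate 1 (adjusted p 0.0356 to 0.0496). With the code series as a term that value was 0.42 (adjusted p = 0.0650). Il1r1, the ligand-binding chain, stood between 8.13 and 12.4 FPKM in all 12 libraries, with overlapping groups. Its difference between ointment groups was 0.09 ± 0.12 (SE; adjusted p = 0.657; 95% interval -0.19 to 0.36).

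Casp1, the protease that matures interleukin-1 beta and interleukin-18, stood at 10.5, 9.31 and 14.8 FPKM in WT_untreated and 8.78, 8.48 and 10.4 FPKM in WT_PBS. WT_Oxarol held 9.13, 9.82 and 10.9 FPKM, and VDRcKO_Oxarol 14.6, 15.6 and 13.8 FPKM. The VDRcKO_Oxarol libraries were above all PBS and WT_Oxarol libraries, and WT_untreated replicate 3, which shares their code series, lay within their range. Casp1 rose by 0.52 ± 0.15 over WT_Oxarol (SE; adjusted p = 0.0447) and by 0.62 ± 0.15 over WT_PBS (SE; adjusted p = 0.0223). Against WT_untreated it was 0.34 ± 0.15 (SE; adjusted p = 0.123). With the code series as a term, the difference from WT_Oxarol was 0.30 and the call was lost (adjusted p = 0.171), as was that against WT_PBS (0.41, adjusted p = 0.0767). The call against WT_PBS was also lost without WT_PBS replicate 1 or 2 or VDRcKO_Oxarol replicate 1 or 2 (0.57 to 0.62, adjusted p 0.0620 to 0.0844). The call against WT_Oxarol was also lost with no filter, quantile normalization or median-of-ratios scaling (adjusted p 0.0628 to 0.0752), and without any 1 of the 9 libraries of WT_PBS, WT_Oxarol and VDRcKO_Oxarol (0.46 to 0.58, adjusted p 0.0511 to 0.118). Within the second series, the WT_Oxarol library held 10.9 FPKM against 13.8 to 15.6 FPKM. Macrophage and monocyte markers moved the same way, at the sums given above, and their part was not tested.

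By count, 0 of 9 members passed between WT_Oxarol and WT_PBS (limma), with 2 at an unadjusted p under 0.05. The share called among all 14059 genes tested was 0.306%, and 1047 of them had an unadjusted p under 0.05. Between VDRcKO_Oxarol and WT_Oxarol 3 of 9 passed, against 13.1% of all genes. Of these, 2 were higher and 1 lower, beside 8.71% and 4.43% of all genes. The median log2 change of the members was 0.09, beside 0.08 over all genes, and in wild type it was 0.10 beside 0.01. WT_PBS against WT_untreated gave 0 of 9 (2 at an unadjusted p under 0.05; 0.00711% of all genes called, 1312 at that unadjusted p). WT_Oxarol against WT_untreated gave 0 of 9 (3 at an unadjusted p under 0.05; 1.31% called, 2403 at that unadjusted p). Against WT_PBS, 4 of 9 passed in VDRcKO_Oxarol, 3 higher and 1 lower, where 16.3% of all genes were called, 10.8% higher and 5.49% lower. Against WT_untreated, 2 of 9 passed in VDRcKO_Oxarol, both higher, where 19.0% of all genes were called, 12.8% higher. These include Il1b, for which the filter favours a rise over WT_untreated. Each share of called members in the VDRcKO_Oxarol comparisons rests on 2 to 4 genes, and that against WT_untreated lay near the share of all genes. Under the alternatives the counts ranged from 1 to 4 against WT_Oxarol and from 0 to 5 against WT_PBS and against WT_untreated. No excess over all genes is read from them. The split of all called genes by direction turned with the scaling: in VDRcKO_Oxarol against WT_PBS 66.2% of called genes were higher, but 37.4% with quantile normalization and 43.0% with median-of-ratios scaling.

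**Figure D2:**
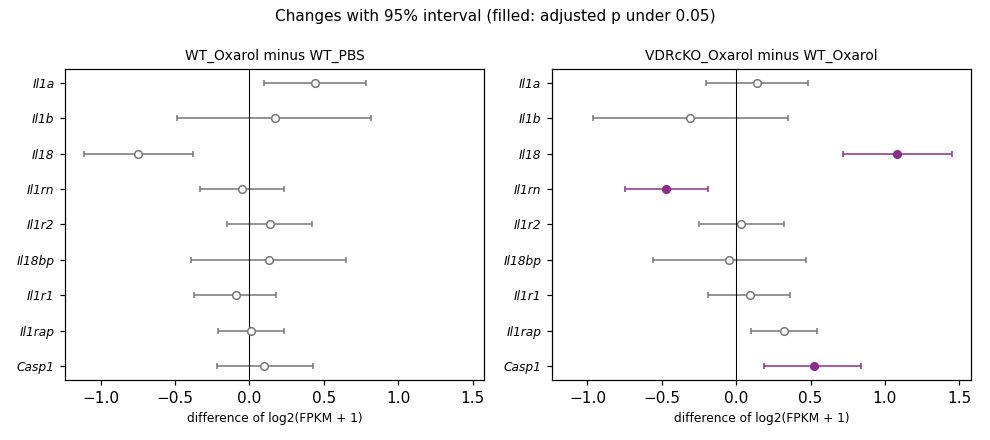
Log2 changes of the 9 genes with 95% intervals (x axis: difference of log2(FPKM + 1)) for WT_Oxarol minus WT_PBS on the left and VDRcKO_Oxarol minus WT_Oxarol on the right; filled points passed an adjusted p of 0.05. Il18 lies at -0.75 in the first and at 1.08 in the second; both share the WT_Oxarol libraries.

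The 3 inhibitor balances were formed within each library, as log2 ratios of FPKM + 1. The added 1 is about as large as the Il18bp values and compresses that ratio. Il1rn over the sum of Il1a and Il1b was 1.93, 2.48 and 1.93 in WT_untreated, 2.39, 2.45 and 2.37 in WT_PBS, 2.36, 1.69 and 1.82 in WT_Oxarol, and 1.11, 1.79 and 1.40 in VDRcKO_Oxarol. The PBS libraries lay above both ointment groups, and the ointment groups overlapped. WT_Oxarol differed from WT_PBS by -0.45 (exact two-sided permutation p = 0.1, adjusted over 6 tests 0.2), and VDRcKO_Oxarol from WT_Oxarol by -0.52 (exact permutation p = 0.2, adjusted 0.3). With 3 against 3 libraries the smallest p possible is 0.1, so no balance could pass.

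Il18bp over Il18 was -4.65, -4.54 and -3.57 in WT_untreated, -4.55, -4.53 and -4.62 in WT_PBS, -3.93, -3.61 and -3.53 in WT_Oxarol, and -4.68, -5.21 and -4.58 in VDRcKO_Oxarol. The mean of this RNA ratio was thus highest in WT_Oxarol, whose libraries did not overlap with WT_PBS or VDRcKO_Oxarol. The differences were 0.88 (exact permutation p = 0.1, adjusted 0.2) and -1.13 (exact permutation p = 0.1, adjusted 0.2). Within the second code series they were 1.09 and -1.29. WT_untreated replicate 3 reached the WT_Oxarol range. In the same comparisons Il18bp alone changed by 0.13 ± 0.23 and -0.05 ± 0.23, and Il18 by -0.75 ± 0.16 and 1.08 ± 0.16 (SE). The ratio thus mostly restates the Il18 values. Il1r2 over Il1r1 averaged 3.48, 3.34, 3.57 and 3.51 in the 4 groups, in the same order, and was at least 3.17 in every library, so RNA of the decoy exceeded that of the signalling receptor throughout. It differed by 0.23 (exact permutation p = 0.4, adjusted 0.48) and -0.05 (exact permutation p = 1, adjusted 1).

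**Figure D3:**
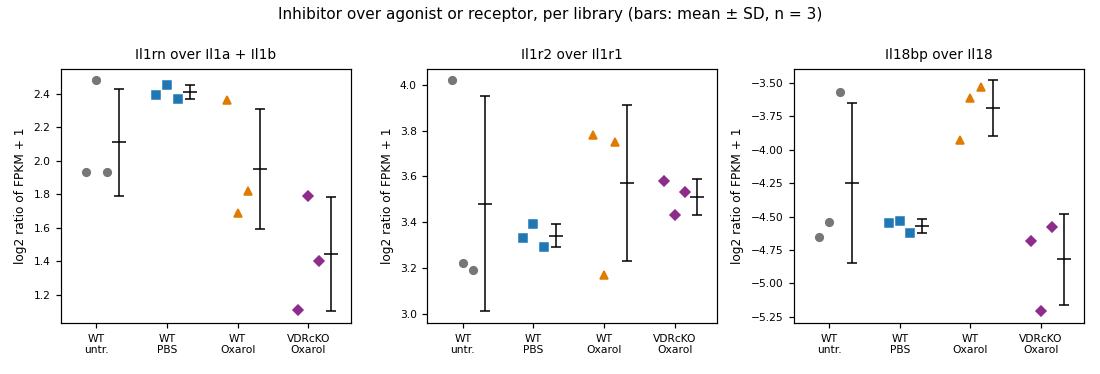
Log2 ratios of FPKM + 1 within each library for Il1rn over Il1a plus Il1b, Il1r2 over Il1r1 and Il18bp over Il18 (points: libraries by group; bars: mean ± SD, n = 3). On average Il18bp over Il18 is highest in WT_Oxarol, at -3.93 to -3.53, a range that WT_untreated replicate 3 reaches.

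The rest of the pathway was read from 59 listed genes, of which 46 passed the filter. None was called by limma between WT_Oxarol and WT_PBS (11 at an unadjusted p under 0.05), where their median log2 change was -0.07 beside 0.01 over all genes. Between VDRcKO_Oxarol and WT_Oxarol 5 were called (10.9%, against 13.1% of all genes), 3 higher and 2 lower, with a median of 0.11 beside 0.08. Among the 6 other ligands and antagonists of the family, 1 rose. Il1f10, which encodes interleukin-38, stood at 16.2, 8.81 and 9.29 FPKM in WT_untreated, 11.8, 16.6 and 10.9 in WT_PBS, 7.90, 5.53 and 4.43 in WT_Oxarol, and 22.5, 17.0 and 11.3 in VDRcKO_Oxarol. The WT_Oxarol libraries were below all others, as for Il18. The ointment groups differed by 1.35 ± 0.29 (SE; adjusted p = 0.0196), and WT_Oxarol against WT_PBS gave -1.03 ± 0.29 (SE; adjusted p = 0.263). The call was lost without WT_Oxarol replicate 2 or 3 or VDRcKO_Oxarol replicate 1 or 2 (1.13 to 1.32, adjusted p 0.0534 to 0.0666).

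The interleukin-36 ligands Il1f6, Il1f8 and Il1f9, which signal through Il1rl2 and Il1rap, had the same signs without passing, and are named after their values were seen. Il1f6 averaged 44.3 FPKM in WT_PBS, 16.0 in WT_Oxarol and 32.7 in VDRcKO_Oxarol, with values of -1.47 ± 0.42 (SE; adjusted p = 0.263) and 1.13 ± 0.42 (SE; adjusted p = 0.0926). Within WT_Oxarol it stood at 27.8, 10.6 and 9.47 FPKM, so its first library stood apart upward. Il1f8 gave -0.55 ± 0.22 and 0.66 ± 0.22 (SE; adjusted p = 0.562 and 0.0685), and Il1f9 -0.40 ± 0.20 and 0.55 ± 0.20 (SE; adjusted p = 0.742 and 0.0905). Cyp24a1 was lowest in the same first WT_Oxarol library, at 66.2 FPKM against 599 and 458 FPKM. Il18 was highest of the 3 in that library, at 35.3 FPKM. So were its marker sums for basal keratinocytes (4022 FPKM), suprabasal keratinocytes (5645 FPKM) and hair follicle (58.6 FPKM). This is 1 library, picked after its values were seen, and what sets it apart was not tested. In the same list of other ligands and antagonists, Il33 went the other way. It gave 0.31 ± 0.10 for WT_Oxarol against WT_PBS and -0.16 ± 0.10 between the ointment groups (SE; limma, adjusted p = 0.383 and 0.306). Il1f5 had the signs of the interleukin-36 ligands, at -0.18 ± 0.11 and 0.14 ± 0.11 (SE; adjusted p = 0.848 and 0.401). The list's median was -0.48 for WT_Oxarol against WT_PBS and 0.60 for VDRcKO_Oxarol against WT_Oxarol. The 2 comparisons share the WT_Oxarol libraries.

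Of the inflammasome and processing genes, 9 of 14 were tested and 1 rose. Gsdmd, whose cleaved product forms the membrane pore through which mature interleukin-1 beta and interleukin-18 leave cells, stood at 4.68, 3.92 and 4.30 FPKM in WT_untreated, 4.43, 3.62 and 3.80 in WT_PBS, 4.76, 4.64 and 4.41 in WT_Oxarol, and 7.58, 6.62 and 6.12 in VDRcKO_Oxarol. Every VDRcKO_Oxarol library exceeded all wild-type ones, by 0.47 ± 0.10 over WT_Oxarol (SE; adjusted p = 0.0210). Quantile normalization lowered that to 0.28 (adjusted p = 0.123), and the call was lost without WT_Oxarol replicate 2 or 3 or VDRcKO_Oxarol replicate 1 or 2 (adjusted p 0.0541 to 0.0693). Pycard, the inflammasome adaptor, gave -0.40 ± 0.18 (SE; adjusted p = 0.141). Nlrp3, Nlrp1b, Nlrc4, Elane and Mefv were too low to test.

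Among 18 signalling genes 1 fell. Irak1, a kinase downstream of MyD88, averaged 16.5, 17.2 and 17.7 FPKM in the wild-type groups and stood at 13.9, 13.7 and 12.9 FPKM in VDRcKO_Oxarol, below all wild-type libraries. It fell by 0.36 ± 0.09 against WT_Oxarol (SE; adjusted p = 0.0263). The signalling list's median was -0.01, beside 0.08 over all genes. Of 9 tested downstream targets 1 rose: Icam1, an adhesion molecule that NF-kB induces, stood at 14.1, 10.6 and 11.9 FPKM in VDRcKO_Oxarol, against 8.82, 7.99 and 9.18 FPKM in WT_Oxarol. The change was 0.44 ± 0.13 (SE; adjusted p = 0.0488). With the code series as a term, the calls for Gsdmd (adjusted p = 0.0692), Irak1 (adjusted p = 0.0998) and Icam1 (adjusted p = 0.209) were lost, whereas Il1f10 kept its call (1.61, adjusted p = 0.0423). Irak1 lost its call without any 1 of the VDRcKO_Oxarol libraries or WT_Oxarol replicate 1 or 2 (-0.41 to -0.28), and Icam1 without any 1 library but WT_untreated replicate 1 (0.34 to 0.53). Icam1 was lost as well with a pseudocount of 0.1, no filter, quantile normalization or median-of-ratios scaling (adjusted p 0.0526 to 0.0737).

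**Figure D4:**
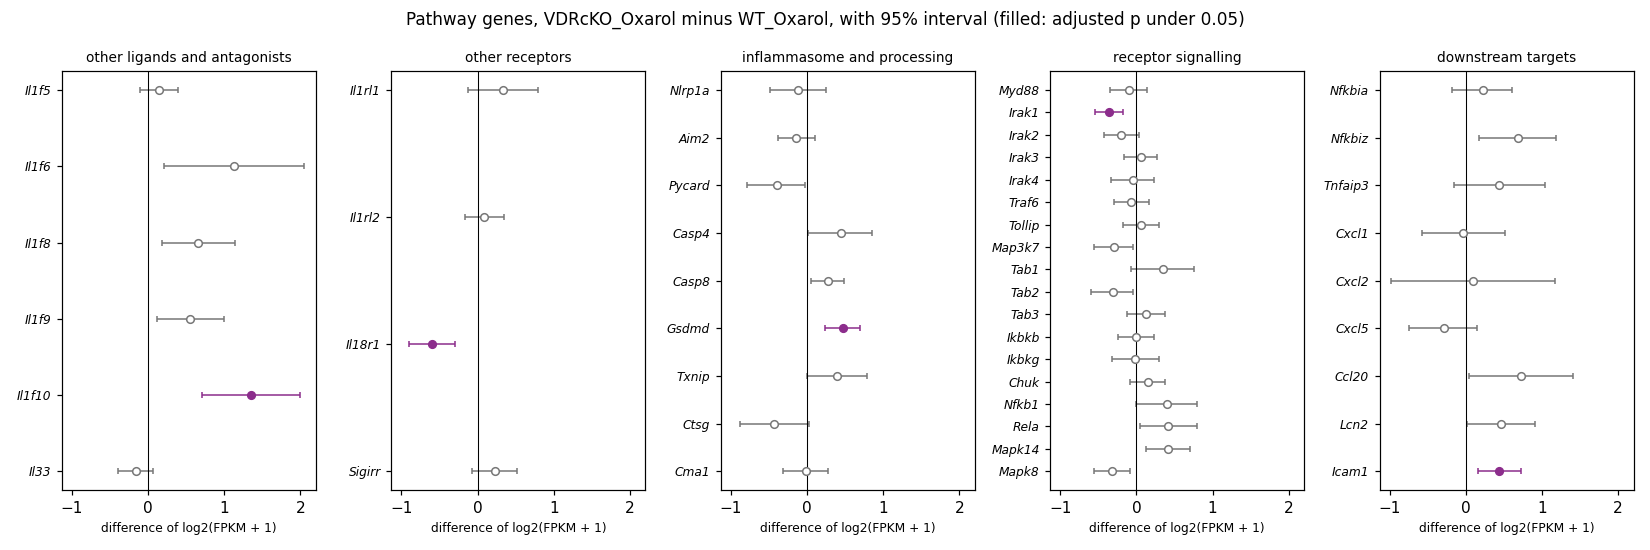
Differences of log2(FPKM + 1) between VDRcKO_Oxarol and WT_Oxarol for the 46 tested pathway genes, one panel per list; bars are 95% intervals and filled points passed an adjusted p of 0.05. The 5 filled points are Il1f10, Gsdmd and Icam1 to the right of 0 and Il18r1 and Irak1 to the left.

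The receptor genes Il1r2, Il1r1, Il1rl2, Il1rl1, Il18r1 and Il18rap follow one another in this order on chromosome 1, and their levels differed widely. Il1r2 was over 100 FPKM, Il1rl2, the interleukin-36 receptor, at 15.1 to 19.4 FPKM in group means, and Il18r1, the ligand-binding chain for interleukin-18, at 1.05 to 2.1 FPKM. Il18r1 stood at 1.93, 2.51 and 1.87 FPKM in WT_Oxarol, while VDRcKO_Oxarol held 0.707, 1.27 and 1.18 FPKM. It fell by 0.60 ± 0.14 between them (SE; adjusted p = 0.0224), opposite in sign to its ligand, and with the code series as a term the call was lost (-0.60, adjusted p = 0.0898). It was lost too without WT_Oxarol replicate 2 (adjusted p = 0.0831) or VDRcKO_Oxarol replicate 1 (adjusted p = 0.0692). Il1rl1, the interleukin-33 receptor, stood at 0.753, 0.546 and 1.12 FPKM in WT_untreated, 1.91, 2.05 and 2.37 in WT_PBS, 3.37, 3.17 and 5.15 in WT_Oxarol, and 3.51, 5.63 and 6.49 in VDRcKO_Oxarol. Untreated, PBS and ointment-treated libraries occupied separate ranges, and the ointment groups overlapped. Between the ointment groups Il1rl1 differed by 0.33 ± 0.21 (SE; adjusted p = 0.289). Il18rap was below the filter, at 0.0281 to 0.0552 FPKM in WT_untreated, 0.282 to 0.563 in WT_PBS, 0.326 to 0.482 in WT_Oxarol and 0.174 to 0.476 in VDRcKO_Oxarol. Neighbouring genes thus showed different patterns over the same libraries: Il1rl1 and Il18rap were lowest in WT_untreated, Il18r1 was lowest in VDRcKO_Oxarol, and Il1r1 overlapped throughout.

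**Figure D5:**
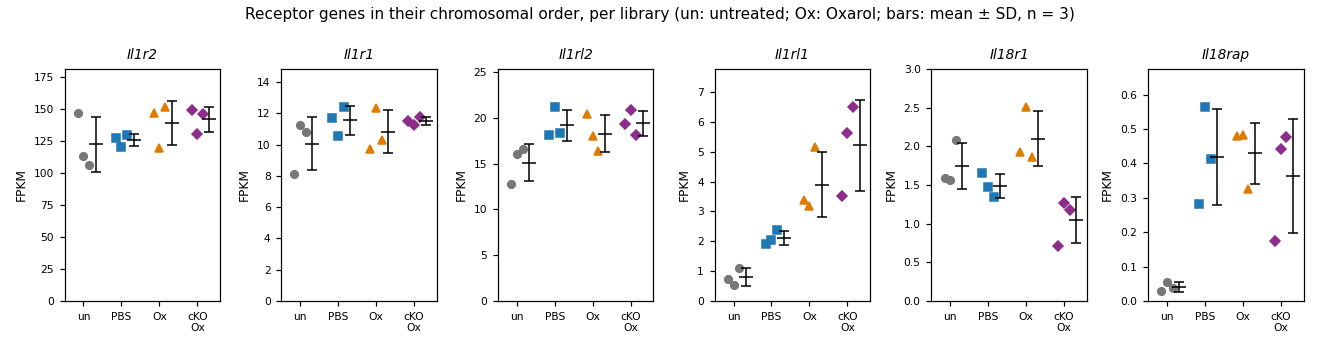
Levels of the 6 receptor genes in their order on chromosome 1 (FPKM, one panel per gene with its own axis from 0); points are libraries by group and bars the mean ± SD of 3. Il1r2 is over 100 FPKM in every library, and Il18rap is at 0.0281 to 0.0552 FPKM in WT_untreated.

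Against untreated skin, the log2 change was above 0 for 9 of 9 tested downstream targets in WT_PBS, 7 of 9 in WT_Oxarol and 9 of 9 in VDRcKO_Oxarol. Of 14 listed targets only these 9 passed the filter on low values. Cxcl1, Cxcl2, Cxcl5 and Il1rl1 would not have passed it on the WT_untreated libraries alone. For them the filter itself favours a rise over WT_untreated, so these counts and calls are description. The share of all genes above 0 was not computed. Genes in this paragraph were named after their values were seen. Cxcl5, a neutrophil-attracting chemokine, stood at 0.391, 0.693 and 0.483 FPKM in WT_untreated, 3.79, 4.17 and 2.58 in WT_PBS, 4.23, 6.54 and 5.54 in WT_Oxarol, and 3.94, 5.65 and 3.26 in VDRcKO_Oxarol. Untreated skin lay below all 9 treated libraries. In WT_Oxarol against WT_untreated 2 of 46 pathway genes passed (4.35%, against 1.31% of all genes): Cxcl5 rose by 2.07 ± 0.20 (SE; adjusted p = 0.00126) and Il1rl1 by 1.43 ± 0.21 (SE; adjusted p = 0.0125). Within the first code series alone Cxcl5 gave 2.03 (adjusted p = 0.0554), and without WT_Oxarol replicate 3 Il1rl1 gave 1.26 (adjusted p = 0.0583) and in the fit of the 2 groups alone 1.43 (adjusted p = 0.0936). WT_PBS gave 0 of 46 (limma; 10 at an unadjusted p under 0.05), although Cxcl5 was 1.56 ± 0.20 higher (SE; adjusted p = 0.0660). VDRcKO_Oxarol gave 13 of 46 (28.3%, against 19.0%), 11 higher and 2 lower. These included 6 of 9 tested targets as higher, namely Nfkbiz, Cxcl1, Cxcl2, Cxcl5, Lcn2 and Icam1, where 12.8% of all genes were called higher. The adjusted p (limma) was 0.00165 for Cxcl5 and 0.0369 to 0.0496, near the threshold, for the others. Cxcl2 overlapped, at 1.05 FPKM in 1 VDRcKO_Oxarol library against up to 1.16 in WT_untreated. These 6 calls were not followed under the alternatives. The target list's median was 0.66 beside 0.08 over all genes. That list's median against WT_untreated was 0.53 for WT_PBS and 0.10 for WT_Oxarol. VDRcKO_Oxarol against WT_PBS gave 5 of 46 (10.9%, against 16.3%): Il1rl1 and Gsdmd rose, and Irak1, Tab2 and Mapk8, which carry the receptor signal, fell. The comparisons share the untreated, PBS or VDRcKO_Oxarol libraries with those above.

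The genes whose log2 levels followed each cytokine most closely were sought over the 12 libraries among 8826 genes, by Pearson's r, as a description. For Il1b they were Cd14 (r = 0.95), a lipopolysaccharide co-receptor and macrophage marker, Hdc (r = 0.92), which makes histamine, and Etf1 (r = 0.88). For Il18 they were Scgb1a1 (r = 0.94), Hspb1 (r = 0.94), a small heat shock protein of keratinocytes, and Ctsa (r = 0.93). Il1rn was nearest to C330022C24Rik (r = 0.96), Ywhaz (r = 0.95) and Plp2 (r = 0.95). Il1a was nearest to Rpl22 (r = 0.91), Mpp1 (r = 0.89) and Tmem88 (r = 0.88). The libraries of a group share treatment, genotype, depth and code series, so each r mixes those differences with the spread within groups.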

How the data were processed

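RNA of mouse ear skin was sequenced in 12 libraries, 4 groups of 3. The submitters' processing notes name Cufflinks 2.1.1, Bowtie2 2.1.0, TopHat2 2.0.8 and build mm9; settings are not given in the sources. The values the authors deposited, 1 per gene symbol, were taken as FPKM; the headers print no unit, and it was inferred from Cufflinks and the range of values. As the use of strand is unknown, reads of overlapping or antisense genes may be mixed.

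The 9 members and the gene lists were chosen with earlier results of these data known. Values were tested as log2(FPKM + 1) with limma 3.58.1 in R 4.3.3: the 14059 genes that reached 1 FPKM in 3 or more of 12 libraries, 1 fit of 4 group means, an intensity trend in the variance, 8 residual degrees of freedom, Benjamini-Hochberg adjustment over all genes tested, threshold 0.05. The added 1 makes fold changes on that log2(FPKM + 1) scale too small for low genes; errors named SE are moderated. "Called" and "passed" mean an adjusted p under 0.05. Balances were tested by exact permutation. The fit was checked on simulated data.

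All 9 members were named, every pathway gene called in the 2 comparisons of ointment groups with WT_PBS or with each other (up to 6 for each direction), and the 3 nearest genes of 4 cytokines (mean of at least 5 FPKM, small RNA genes left out). Replicate numbers follow deposit order. Fragment totals were estimated from the steps between low FPKM values, with transcript lengths of GENCODE M21, another build than mm9; 42.1% to 48.0% of low genes lay within 2% of a step, so the totals are approximate and cover counting error only. Promoter windows are RefSeq's (GRCm38.p6); all 9 members matched. The only coordinates given are those of the RefSeq windows, on GRCm38.p6 and not on mm9; the order of the receptor genes comes from the same reference build. Alternatives were 0.1 as the pseudocount, a filter of 5 FPKM or none, median-of-ratios scaling, quantile normalization, fits of 2 groups, the code series as a term, the first code series alone, a robust variance model, no variance trend, array weights, zeros of abundant genes set to missing, and leaving out each library. Python 3.11.15 with matplotlib 3.10.9 drew the figures.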

Additional observations from a re-analysis of the deposited data

How the results depend on the processing

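The Il18 difference between VDRcKO_Oxarol and WT_Oxarol passed under all 23 alternatives (0.95 to 1.18, adjusted p 0.00108 to 0.0309). Il1rn in the same comparison was lost under 9 of 23 and Casp1 under 13 of 23, while Il1rap passed under 5 of 23. Il18 in WT_Oxarol against WT_PBS (-0.85 to -0.62) passed with array weights (adjusted p = 0.0159) and without WT_untreated replicate 1 (adjusted p = 0.0480). The number of members called moved by more than 1.5 times as follows. With array weights it was 1 for WT_Oxarol against WT_PBS, 2 for WT_Oxarol against WT_untreated and 5 for VDRcKO_Oxarol against WT_untreated. Over all 14059 genes, array weights gave 360, 561 and 3346 calls there, beside 43, 184 and 2668 in the main fit. The robust variance model called 1 member for WT_Oxarol against WT_untreated, and 194 of all genes. With the code series as a term 1 member was called in each of the 3 comparisons of VDRcKO_Oxarol. Of all genes, 283 were then called against WT_Oxarol, 611 against WT_PBS and 1109 against WT_untreated, beside 1848, 2286 and 2668 in the main fit. Without a filter 1 member was called against WT_Oxarol and 1 against WT_untreated, with 1555 and 2344 of 20386 genes. For VDRcKO_Oxarol against WT_PBS, quantile normalization and median-of-ratios scaling gave 2 members each, while calls over all genes were 2588 and 2410. Against WT_untreated, a filter of 5 FPKM gave 1 member (Il1b is then not tested), and quantile normalization and the fit of 2 groups gave 0 each. Calls over all genes were then 1921 of 9591, 3064 of 14059 and 435 of 14059. Leaving out 1 library, the counts ranged from 0 to 1 for WT_Oxarol against WT_PBS, 1 to 4 for VDRcKO_Oxarol against WT_Oxarol, 0 to 4 against WT_PBS and 0 to 5 against WT_untreated, and stayed at 0 for the other comparisons. For VDRcKO_Oxarol against WT_Oxarol, 1 member remained called without WT_PBS replicate 1, WT_Oxarol replicate 2 or any 1 of the VDRcKO_Oxarol libraries. Calls over all genes were then 1214, 322, 502, 504 and 760, in that order. Against WT_PBS the member count was 0 without WT_PBS replicate 1 or 2 or VDRcKO_Oxarol replicate 1, 2 without WT_PBS replicate 3, and 1 without VDRcKO_Oxarol replicate 2 or 3. Calls over all genes fell from 2286 to 543, 646, 889, 1803, 959 and 1229, in that order. Against WT_untreated the member count was 5 without WT_untreated replicate 1 and 0 without VDRcKO_Oxarol replicate 3. It was 1 without WT_untreated replicate 2, any 1 of the WT_PBS libraries, WT_Oxarol replicate 3, or VDRcKO_Oxarol replicate 1 or 2. Calls over all genes were 2064 in the first of these settings, 1486 in the second and 1168 to 2573 in the rest. Il1r2 over Il1r1 between the ointment groups turned to 0.05 without WT_Oxarol replicate 1 and 0.04 without replicate 3 (range -0.25 to 0.05). The cause of these changes was not tested.

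Quantile normalization moved the median of all genes between VDRcKO_Oxarol and WT_Oxarol by -0.12 and the share of higher among called genes from 66.3% to 38.8% (41.8% with median-of-ratios scaling). Against WT_untreated the share went from 67.3% to 39.7% and 49.4%. Setting zeros to missing could not change a balance, as no member was listed at 0. Depth limits Il1b and Il18bp most. No paired analysis was possible because the labels number no replicates and the numbers used follow deposit order.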
